A study of Mus musculus with 8 samples.

Results

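The 10 genes described here encode growth factors of the spermatogonial niche, the cells and signals around the stem cells of the testis: Gdnf, Kitl, Cxcl12, Csf1, Fgf2, Bmp4, Inhba, Inhbb, Igf1 and Nrg1. They were taken by gene symbol from a list of niche ligands, and all 10 were found among the 23983 genes of the expression table. The table holds total RNA-seq of whole testis pieces from wild-type C57BL/6J mice at day 12, day 16 and day 24 after birth (d12, d16, d24) and at the adult stage. Each stage is 1 library, so there is no spread between animals, no test of a difference between stages was possible, and a difference between libraries has no replicate check. The number of animals behind a library is not given in the sources used here. In young mice the first wave of spermatogenesis advances together in all tubules, so that later stages add meiotic cells and then spermatids.

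Spermatogonial stem cells sit on the basement membrane of the seminiferous tubule. Sertoli cells, peritubular myoid cells, Leydig cells, endothelium and macrophages around them secrete ligands that hold them as stem cells or move them towards differentiation. GDNF, which signals through GFRA1 and RET, and FGF2 favour self-renewal. KIT ligand, made by Sertoli cells, acts on KIT of differentiating spermatogonia. CXCL12 attracts cells that carry CXCR4, CSF1 acts through CSF1R on macrophages, and activins and BMP4 are ligands of the TGF-beta superfamily.

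Promoter sequences of the members were read from RefSeq (GRCm38.p6). The table used holds 10 upstream windows of 250 bases for 9 of the 10 genes, with 2 windows for Gdnf; Nrg1 has none there. The last 120 bases before the annotated start are shown for Gdnf, which of the 10 differed most between d16 and d24 on the log2(FPKM + 0.1) scale, for Kitl and Cxcl12, whose profiles over the stages were closest to each other, and for Inhba, which was listed at 0 in adult testis. Capitals mark matches, on either strand, to the TATA box TATAAA, the GC box GGGCGG, the CCAAT box CCAAT, the E-box CACGTG, the cyclic AMP response element TGACGTCA or its core TGACG, which lies within the full element.
Gdnf (chr15:7809928-7810047, plus strand): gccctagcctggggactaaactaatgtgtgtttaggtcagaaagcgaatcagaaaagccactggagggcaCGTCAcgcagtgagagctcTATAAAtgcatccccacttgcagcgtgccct
Kitl (chr10:100015701-100015820, plus strand): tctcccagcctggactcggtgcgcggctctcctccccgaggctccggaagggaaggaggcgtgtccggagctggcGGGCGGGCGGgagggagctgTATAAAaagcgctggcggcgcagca
Cxcl12 (chr6:117168415-117168534, plus strand): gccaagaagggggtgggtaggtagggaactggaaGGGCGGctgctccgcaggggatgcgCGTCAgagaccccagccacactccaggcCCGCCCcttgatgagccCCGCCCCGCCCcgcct
Inhba (chr13:16011731-16011850, plus strand): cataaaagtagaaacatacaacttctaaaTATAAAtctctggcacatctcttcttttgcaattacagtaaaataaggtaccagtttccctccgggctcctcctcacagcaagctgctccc

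The TATA box letters begin 31 bases before the start in Gdnf, 25 in Kitl and 91 in Inhba, and 12.4% of 32851 promoter windows hold them on either strand. The core TGACG was present in Gdnf (50 bases before the start), Cxcl12 and Fgf2, and in 17.8% of all windows. The GC box was present in 6 of the 9 genes and in 32.7% of all windows. The full element TGACGTCA was in none of the members' windows and in 1.55% of all. The CCAAT box was in the windows of Igf1 and Gdnf (33.8% of all) and the E-box in that of Bmp4 (6.02% of all). GC content ranged from 43.2% upstream of Inhba to 69.2% upstream of Kitl, with a median of 52.4% over all windows. These matches describe the letters of the windows only.

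By RefSeq (GRCm38.p6), the genes lie on 8 chromosomes. Gdnf spans chr15:7810048-7837580, Cxcl12 chr6:117168535-117181368 and Fgf2 chr3:37348653-37404830 on the plus strand, and Csf1 chr3:107741048-107760469 on the minus strand. Kitl (chr10:100015821-100100416) and Igf1 (chr10:87858265-87937047) share a chromosome and the plus strand. Bmp4 (chr14:46383525-46390669), Inhbb (chr1:119415463-119422248) and Nrg1 (chr8:31814551-32009504) lie on the minus strand and Inhba (chr13:16011851-16031609) on the plus strand.

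Values are given in FPKM, sequenced fragments scaled to transcript length and to library depth, so that levels of different genes can be set side by side. The fragments behind a value were recovered from the smallest steps between values, and the 95% limits in parentheses are exact and account for counting error alone. One fragment on a transcript of 1 kb was worth 0.0799 FPKM at d12 and then 0.0800, 0.0455 and 0.112 in the order of the stages, so a given FPKM rested on the most fragments at d24 and on the fewest in adult testis. For Gdnf, Cxcl12, Csf1, Nrg1 and other genes whose curated transcripts differ in length by more than 1.1 times, fragment numbers and intervals were computed with the shortest transcript, which gives the widest interval. For the very low Nrg1 no interval is given.

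Spermatids, the haploid germ cells, and Sertoli cells, the somatic cells that nurse germ cells, differed in when their markers were high. The summed level of 6 spermatid markers was 14.6, 7.80, 2377 and 25816 FPKM in the order d12, d16, d24 and adult, whereas 8 Sertoli cell markers summed to 200.2, 148.0, 93.2 and 69.4 FPKM. All 8 Sertoli markers were detected at d12, and Amh, the anti-Müllerian hormone of immature Sertoli cells, was listed at 0 in adult testis. In whole-tissue RNA, fewer cells of a type and less RNA per cell cannot be told apart. The 4 markers of epididymis, which could be taken along with a testis piece, summed to at most 0.0792 FPKM.

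Kitl, Igf1 and Inhbb were the most abundant of the 10 genes at every stage and made up 73.3% to 79.1% of their summed FPKM. The sum itself was 88.2 FPKM at d12, then 56.4, 27.3 and 20.5 at d16, d24 and the adult stage. At d12, Kitl and Igf1 lay close together at 25.6 (24.4 to 26.8) and 24.3 FPKM (23.3 to 25.4), and at d16 at 15.7 and 15.8, with overlapping intervals. At d24 Inhbb led with 8.61 FPKM (8.03 to 9.23), above Kitl with 7.18 (6.71 to 7.68). In adult testis Kitl at 6.19 (5.51 to 6.94) and Inhbb at 5.69 (4.96 to 6.50) were not distinguishable by counting error. Below these 3 genes, Cxcl12 was the next highest at d12, d16 and d24, and Csf1 (2.43 FPKM) lay beside Cxcl12 (2.38 FPKM) in adult testis. The number of genes at 1 FPKM or more was 8 at d12, 7 at d16 and 5 in each of the later libraries.

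**Figure D1:**
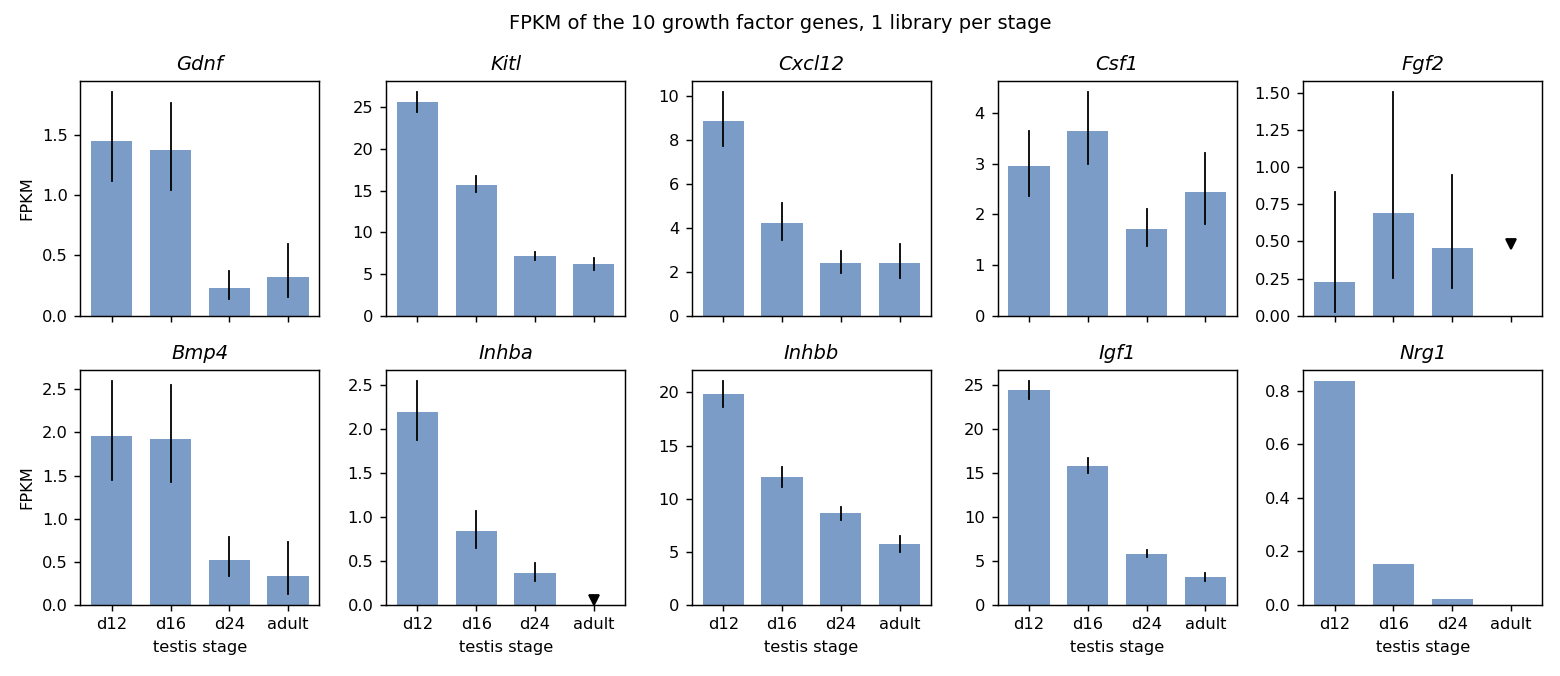
FPKM of each gene (vertical axis, linear, own scale for each gene) at the 4 stages, with 1 library per bar. Black lines are exact 95% counting intervals (not drawn for Nrg1) and a triangle marks the level of 3 fragments where the gene was listed at 0. Kitl, Inhbb and Igf1 step down at each stage, from 25.6, 19.8 and 24.3 FPKM at d12 to 6.19, 5.69 and 3.12 in adult testis, while Csf1 stays between 1.71 and 3.65 FPKM.

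Of the 10 genes, 6 had a mean of at least 1 FPKM over the 4 libraries (Kitl, Cxcl12, Csf1, Bmp4, Inhbb and Igf1) and were counted against the 13901 genes that met the same limit. Gdnf, Fgf2, Inhba and Nrg1 lay below it and are described by their values. A gene was counted as higher or lower when log2(FPKM + 0.1) differed by at least 2-fold between libraries. From d12 to d16, 1 of the 6 (Cxcl12) was at least 2-fold lower and none was higher, beside 3.67% of all genes lower and 12.6% higher. From d16 to d24, 4 of the 6 were lower (Kitl, Csf1, Bmp4 and Igf1) and none was higher, beside 8.45% and 27.5%. From d24 to adult testis none of the 6 was lower or higher, beside 2.2% and 11.4%. From d12 to adult testis 5 of the 6 were lower (all but Csf1), beside 23.1% lower and 35.7% higher. These shares over all genes depend on the scaling of the libraries. After equalising the FPKM sums of the libraries they were 6.21% lower and 12.1% higher for d12 to d16, 30.7% and 19.4% for d16 to d24, 10.9% and 6.73% for d24 to adult testis, and 50.1% and 23.2% for d12 to adult testis. With the same equal sums, the numbers of the 6 genes that were lower were 1, 6, 2 and 6, and none was higher, so that Csf1 too was at least 2-fold lower in adult testis than at d12. Levels and fold differences given for single genes are those of the deposited values.

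On the log2 scale the median change of the 6 genes was -0.66 from d12 to d16, -1.08 from d16 to d24, -0.36 from d24 to adult testis and -1.94 over the whole interval. Over all 13901 genes the medians were 0.00, 0.13, -0.02 and 0.20. Kitl, Cxcl12, Bmp4, Inhbb and Igf1 were lower at each later stage than at the one before, which is 5 of 6 beside 23.7% of all genes. The last of these steps was within counting error for Cxcl12 (1.01-fold, 0.689 to 1.49) and Bmp4 (1.56-fold, 0.616 to 4.67), as was the first for Bmp4 (1.02-fold, 0.670 to 1.55).

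**Figure D2:**
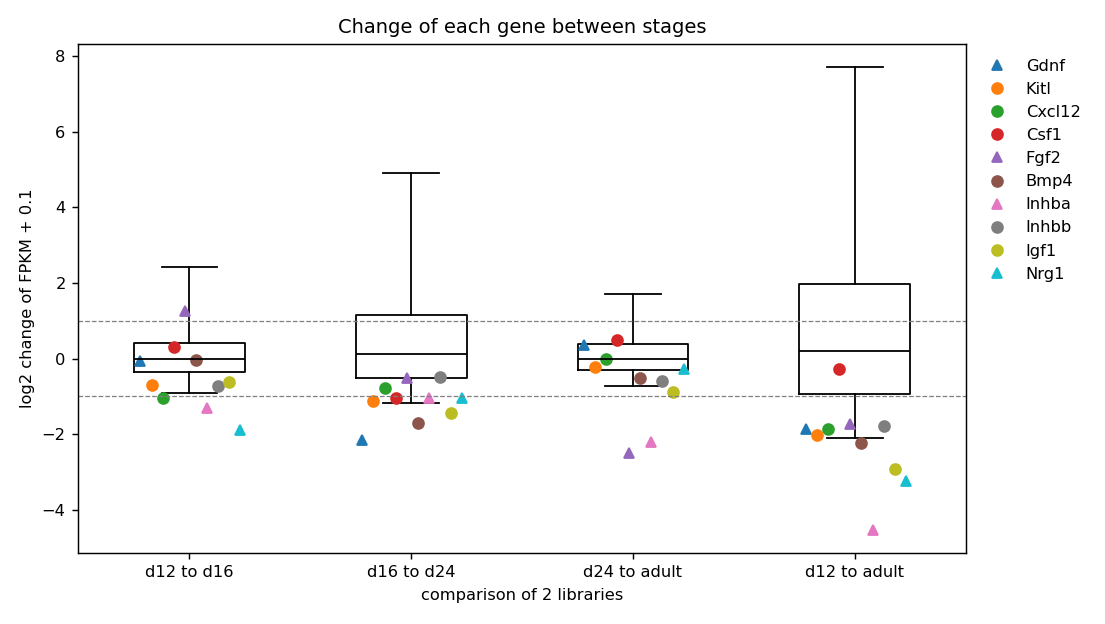
Log2 change of FPKM + 0.1 between libraries for each growth factor gene (points; circles have a mean of at least 1 FPKM over the 4 libraries, triangles do not) beside all 13901 genes above that limit (box: quartiles and median; whiskers: 5th and 95th percentiles). Dashed lines mark 2-fold. From d16 to d24 Gdnf lies lowest of the 10 at -2.15, and from d12 to adult testis only Csf1 lies within 2-fold, which it does not with equal FPKM sums (-1.47). The values of Fgf2, Inhba and Nrg1 against adult testis depend on the added 0.1 FPKM, because these genes were listed at 0 there.

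Among the factors that sustain stem cells, Gdnf, the Sertoli and peritubular ligand of GFRA1 and RET, had 1.45 FPKM at d12 (1.11 to 1.85), 1.37 at d16 (1.04 to 1.77), 0.232 at d24 (0.138 to 0.367) and 0.325 in the adult (0.156 to 0.598). The first 2 libraries were alike within counting error and stood well above the later ones. The d16 level was 5.90 times the d24 level (3.35 to 10.4), while the d24 and adult levels, from 18 and 10 fragments, could not be told apart. Fgf2, a heparin-binding mitogen, was near the detection limit throughout, with 2 fragments at d12 (0.230 FPKM), 6 at d16 (0.691), 7 at d24 (0.458) and none in adult testis. Since 3 fragments in adult testis would be 0.484 FPKM on its 695-base transcript, no change in Fgf2 was detectable at this depth.

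Cxcl12, a chemokine, had 8.89 FPKM at d12 (7.73 to 10.2), 4.23 at d16 (3.44 to 5.15), 2.41 at d24 (1.96 to 2.94) and 2.38 in the adult (1.70 to 3.25). Its largest step came first: the d16 level was 0.476 of the d12 level (0.370 to 0.606), and the later step to d24 was 1.76-fold (1.32 to 2.35). Csf1, the growth factor of macrophages, had 2.95 FPKM at d12 (2.36 to 3.65), 3.65 at d16 (2.99 to 4.41), 1.71 at d24 (1.37 to 2.11) and 2.43 in the adult (1.81 to 3.21). It was lowest at d24, 2.13-fold under d16 (1.60 to 2.88), and its d12 and adult levels differed by no more than counting error (1.21-fold, 0.854 to 1.77) as deposited. On the log2 scale that difference was -0.27 as deposited, -1.47 with equal FPKM sums and -1.17 with upper quartile scaling. Csf1 was the gene of the 6 with the smallest difference between d12 and adult testis.

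Among the factors linked to differentiation, Kitl was lower at each step: d12 was 1.63 times d16 (1.51 to 1.76), d16 was 2.19 times d24 (2.00 to 2.40), and d24 was 1.16 times adult testis (1.01 to 1.33). Between d12 and adult testis the level of Kitl differed 4.13-fold (3.65 to 4.68). Bmp4, a bone morphogenetic protein, had 1.96 FPKM at d12 (1.45 to 2.59), 1.93 at d16 (1.42 to 2.55), 0.525 at d24 (0.333 to 0.788) and 0.337 in the adult (0.124 to 0.734). Like Gdnf it was level between d12 and d16 and then lower at d24, here 3.67-fold (2.19 to 6.32), with 6 fragments left in adult testis. Of the profiles of all members, that of Bmp4 was the nearest to that of Gdnf. Nrg1, a ligand of the ERBB receptors, had 0.835, 0.152 and 0.0216 FPKM at d12, d16 and d24, and was listed at 0 in adult testis. Its curated transcripts run from 858 to 6440 bases, so the d12 value stands for 9 to 67 fragments. With the shortest transcript, the d12 level was 2.13 times the level of 3 fragments in adult testis, a ratio that leaves out the counting error at d12.

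Igf1, insulin-like growth factor 1, had 24.3 FPKM at d12, 15.8 at d16 (15.0 to 16.6), 5.79 at d24 (5.42 to 6.18) and 3.12 in the adult (2.70 to 3.59). The 4 counting intervals of Igf1 do not overlap, and every step was larger than counting error: 1.54-fold (1.44 to 1.65), 2.73-fold (2.51 to 2.97) and 1.85-fold (1.59 to 2.17). Its d12 level was 7.79 times the adult level (6.74 to 9.06), the largest such ratio among the 6 genes above 1 FPKM, though the interval for Bmp4 (5.82-fold, 2.49 to 16.6) overlaps it.

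Inhba and Inhbb encode the beta A and beta B chains, which pair with each other to form activins and with the alpha chain (Inha) to form inhibins, the Sertoli hormones that restrain FSH. Inhbb had 19.8 FPKM at d12 (18.6 to 21.0), 11.99 at d16 (11.1 to 13.0), 8.61 at d24 and 5.69 in the adult. Each step was smaller than 2-fold as deposited, and over the whole interval Inhbb differed 3.48-fold (3.00 to 4.05). With equal FPKM sums the log2 differences of Inhbb were -0.84, -1.09 and -1.07 for the 3 steps and -3.00 over the whole interval. Inhba was far lower and its differences were larger: 2.19 FPKM at d12 (1.88 to 2.54), 0.837 at d16 (0.649 to 1.06), 0.357 at d24 (0.265 to 0.471, 50 fragments) and 0 in the adult. A count of 3 fragments of Inhba in adult testis would be 0.0528 FPKM. The d24 level was 6.77 times and the d12 level 41.6 times that limit, leaving out the counting error at d24 and d12. At its d24 level Inhba would have given 20.3 fragments in the adult library. Among genes with 1 curated transcript that were listed at 0 in adult testis, Inhba had the most fragments at d24, followed by Zim1 with 32.0. No gene with at least 5 FPKM in each of the other 3 libraries was listed at 0 in adult testis, while 15 such genes were listed at 0 at d12. This count does not cover genes as low as Inhba. Whether its 0 is particular to the 1 adult library was not tested.

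The balance of the chains differed between stages. Inhbb was 9.03 times Inhba at d12, 14.3 times at d16 and 24.1 times at d24, and the share of Inhba in the summed beta chains was 9.97%, 6.52% and 3.98%. Inha had 49.4, 44.6, 34.3 and 23.1 FPKM in the order of the stages, and its ratio to the summed beta chains was 2.25, 3.48, 3.83 and 4.07. Ratios within a library do not depend on the scaling between libraries.

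Since 7 of the 8 Sertoli markers were themselves lower at each later stage, the growth factors were also set beside Sertoli genes. The exception was Rhox5, with 20.3, 20.4, 17.1 and 16.7 FPKM. Rhox5, Gata1 and Amh are not part of the reference used here. The geometric mean of Sox9, Wt1, Cldn11, Dhh and Fshr was 19.9 FPKM at d12 and then 13.2, 8.03 and 5.09, a difference of 3.91-fold from first to last. Divided by this reference, with d12 set to 1, adult testis lay at 0.948 for Kitl (0.836 to 1.07), 1.05 for Cxcl12 (0.730 to 1.48), 1.12 for Inhbb (0.966 to 1.30) and 0.878 for Gdnf (0.399 to 1.71). For these 4 genes the adult to d12 ratio was thus within counting error of that of the reference genes. Igf1 lay lower, at 0.502 (0.432 to 0.580), and Csf1 higher, at 3.22 (2.21 to 4.58), while Bmp4 lay at 0.673 (0.236 to 1.57). These intervals leave out the error of the reference. The match also depends on which Sertoli genes were chosen. From d12 to adult testis, the left-out Rhox5 and Gata1 differed by -0.28 and -0.88 on the log2 scale, and Amh by -5.01. Kitl and Inhbb differed by -2.03 and -1.78, more than Rhox5 and Gata1 and less than Amh.

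At the stages between, the picture was less even. Relative to the reference, Gdnf stood at 1.42 of its d12 level at d16 and at 0.397 at d24, and Bmp4 at 1.48 and 0.663. Inhbb kept within 0.911 and 1.12 at all stages, and Kitl was lowest at d24 with 0.696. Inhba stood at 0.574 at d16 and 0.404 at d24, below the Sertoli reference at both stages. Which cells made each ligand was not measured.

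**Figure D3:**
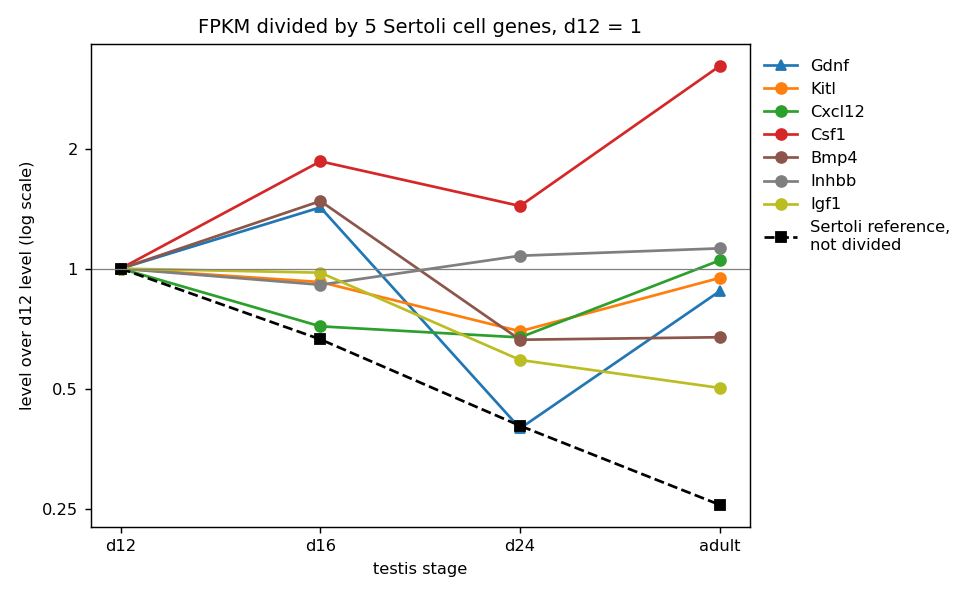
FPKM of 7 growth factor genes divided by the geometric mean of Sox9, Wt1, Cldn11, Dhh and Fshr in the same library and set to 1 at d12 (vertical axis, log scale), by testis stage. The dashed black line is the reference itself, not divided, which ends at 0.256 of its d12 level. In adult testis Kitl, Cxcl12, Inhbb and Gdnf lie between 0.878 and 1.12, Igf1 at 0.502 and Csf1 at 3.22.

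Markers of other somatic cell types did not all follow those of Sertoli cells. The 6 macrophage markers, cells that respond to CSF1, summed to 30.7, 30.5, 27.4 and 27.9 FPKM in the order of the stages, and none of the 5 above 1 FPKM differed 2-fold between d12 and adult testis on the log2(FPKM + 0.1) scale. As deposited, 23.1% of all genes were at least 2-fold lower and 35.7% higher over that interval. With equal FPKM sums all 5 macrophage markers were lower, beside 50.1% of all genes. The 6 Leydig markers summed to 131.6, 82.4, 153.4 and 580.7 FPKM, with Insl3, the insulin-like hormone of mature Leydig cells, 15.5 times higher in adult testis than at d12 (13.0 to 18.8). The 6 endothelial markers summed to 20.7, 14.4, 7.64 and 9.36 FPKM, and 3 of the 4 above 1 FPKM were at least 2-fold lower in adult testis than at d12. Of the 6 genes listed as peritubular myoid markers 4 were at least 2-fold lower in adult testis, and Actg2 was higher, at 225.0 FPKM against 9.47 at d12. Their part in the levels of the growth factors was not tested.

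Of 21 receptor genes for these ligands, 17 had a mean of at least 1 FPKM. From d12 to adult testis 12 of the 17 were at least 2-fold lower and none was higher, beside 23.1% and 35.7% of all genes. Their median was -1.57 on the log2 scale, beside -1.94 for the ligands and 0.20 for all genes. Gfra1 and Ret, which together form the GDNF receptor, went opposite ways in the deposited values. Gfra1 had 1.20 FPKM at d12 (0.935 to 1.52), 0.814 at d16 (0.600 to 1.08), 1.18 at d24 (0.977 to 1.41) and 2.41 in the adult (1.97 to 2.93), and the adult level was 2.01 times the d12 level (1.48 to 2.79). It was not counted as higher because 0.1 FPKM was added before the comparison (0.95 on the log2 scale), and its direction depended on the scaling, with -0.20 for equal FPKM sums and 0.07 for upper quartiles. Ret had 1.38, 1.03, 0.148 and 0.0458 FPKM, the last from 2 fragments, so its mean was under 1 FPKM. From d16 to d24 Ret differed 6.98-fold (4.15 to 11.8), close in size to the 5.90-fold difference of Gdnf over the same step. The FPKM ratio of Gdnf to Gfra1 was 1.21, 1.68, 0.197 and 0.135 in the order of the stages. That of Gdnf to Ret went the other way, with 1.05, 1.33, 1.57 and 7.09. In adult testis these ratios rest on 10 fragments of Gdnf, and the second on 2 of Ret.

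Kit, the receptor of KIT ligand, had 18.4 FPKM at d12 and 6.49 in adult testis, 2.84-fold less (2.50 to 3.23), and the ratio of Kitl to Kit lay between 0.924 and 1.39 at the 4 stages. For CXCL12, the signalling receptor Cxcr4 was 3.20-fold (1.59 to 7.13) and the scavenging receptor Ackr3 4.25-fold (2.90 to 6.28) lower in adult testis than at d12. The ratio of Cxcl12 to Ackr3 lay between 1.06 and 1.32. Csf1r was the receptor of a member that, like its ligand, differed little as deposited (1.41-fold, 1.05 to 1.92). On the log2 scale the difference of Csf1r was -0.48 as deposited, -1.68 with equal FPKM sums and -1.37 with upper quartile scaling. Igf1r was 4.29-fold lower in adult testis (3.65 to 5.06).

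Activin receptors differed in how they behaved. Acvr2a, a type II receptor, was level as deposited, with 9.40, 9.79, 10.3 and 10.0 FPKM in the order of the stages, and the type I receptor Acvr1b had 4.90 FPKM at d12 and 4.96 in adult testis (ratio 1.01, 0.836 to 1.22). With equal FPKM sums both were lower in adult testis, at -1.12 for Acvr2a and -1.19 for Acvr1b on the log2 scale. Acvr2b, the other type II receptor, was 13.5-fold lower in adult testis than at d12 (8.42 to 22.4), with most of the difference between d24 and adult testis (6.49-fold, 4.03 to 10.8). The BMP receptors Bmpr1a and Bmpr2 were 2.99-fold (2.68 to 3.34) and 4.42-fold (4.02 to 4.86) lower. Of the neuregulin receptors, Erbb2 was 8.88-fold lower (5.24 to 16.2), and Erbb4 was lowest at d24 with 0.225 FPKM and higher again in adult testis with 0.606. Of the FGF receptors, Fgfr1 was 3.38-fold (2.68 to 4.33) and Fgfr2 2.61-fold lower in adult testis (1.99 to 3.46).

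Of 19 genes for binding proteins and antagonists, 14 had a mean of at least 1 FPKM. Of these, 9 were at least 2-fold lower in adult testis than at d12 and 1 was higher, beside 23.1% and 35.7% of all genes. The lower ones included 6 IGF-binding proteins, Igfbp2 to Igfbp7, which carry IGF1 and modify its action. Igfbp3 differed most, from 10.9 to 0.781 FPKM (13.9-fold, 8.61 to 24.3), and Igfbp7 was the most abundant, with 117.2 FPKM at d12 and 47.7 in adult testis. Smad7, an inhibitor of TGF-beta and activin signalling, was 6.80-fold lower (4.18 to 11.8), whereas Smad6, an inhibitor of BMP signalling, was 4.09-fold higher (2.48 to 6.97) as deposited and less than 2-fold higher with equal FPKM sums (0.78 on the log2 scale). Of the extracellular antagonists, Fst, which binds activin, was at 1.74 FPKM at d12 and 0.826 in adult testis, and Grem1 was listed at 0 at all 4 stages.

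Of 27 related ligands, only 7 had a mean of at least 1 FPKM. Of these, 6 were at least 2-fold lower in adult testis than at d12, beside 23.1% of all genes. These 6 were Igf2, Vegfa, Tgfb2, Tgfb3, Wnt5a and Wnt6. Igf2 had 12.4 FPKM at d12 and 1.73 in adult testis, 7.20-fold less (4.67 to 11.3), beside the 7.79-fold difference of Igf1. The other GDNF family ligands were low: Pspn was listed at 0 at every stage, Nrtn stayed at or below 0.235 FPKM, and Artn was listed at 0 at d12 and d16 but reached 1.56 FPKM at d24 and 1.81 in the adult. Of the other activin beta chains, Inhbc and Inhbe did not exceed 0.0694 FPKM.

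**Figure D4:**
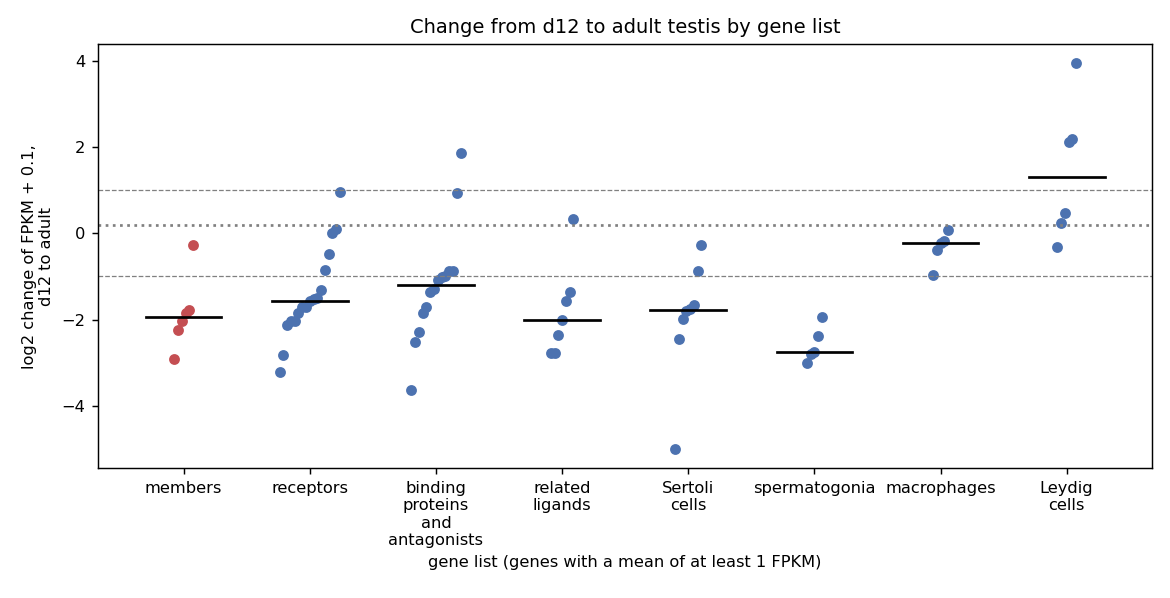
Log2 change of FPKM + 0.1 from d12 to adult testis (vertical axis) for single genes (points) of each list that have a mean of at least 1 FPKM over the 4 libraries, with the list median (black bar). The dotted line is the median of all 13901 such genes at 0.20 and the dashed lines mark 2-fold. The growth factors (red) have a median of -1.94, the receptors of -1.57, the Sertoli markers of -1.78 and the spermatogonial markers of -2.76.

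Genes of spermatogonia, the cells that receive these signals, were lower as well. All 5 spermatogonial markers above 1 FPKM were at least 2-fold lower in adult testis than at d12, beside 23.1% of all genes. Their median was -2.76 on the log2 scale. Among them were Zbtb16, a stem cell transcription factor (7.16-fold, 5.83 to 8.83), and Stra8, a gene of meiotic entry (7.05-fold, 6.01 to 8.37). Of 7 genes that respond to GDNF in cultured spermatogonia, 3 had a mean of at least 1 FPKM. Id4 was 6.51 times (5.68 to 7.53) and Egr3 18.9 times higher (10.7 to 37.9) in adult testis than at d12. Egr3 reached the mean only through its later levels, with 0.247, 0.0620, 1.79 and 4.67 FPKM in the order of the stages. Etv5 had 2.78 FPKM at d12 and 3.37 in adult testis, and its log2 difference was 0.27 as deposited and -0.92 with equal FPKM sums. Of the 4 genes below 1 FPKM, Pou3f1 was 8.54-fold (2.12 to 74.6, 2 adult fragments) and Egr2 4.13-fold lower (1.54 to 17.6), Lhx1 was 9.13 times higher (2.78 to 49.2), and Bcl6b had 0.676 and 1.01 FPKM.

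The likeness of profiles was measured as the distance between log2(FPKM + 0.1) values, centred on their mean over the 4 libraries. Among pairs of members, Kitl and Cxcl12 were nearest (0.381), followed by Cxcl12 and Inhbb (0.507) and by Kitl and Inhbb (0.520). Over all genes, the nearest to Kitl were Trim3, Ddit4 and Kdelc2, at 0.0282 to 0.0520, and the nearest to Inhbb were Prr12, Gm15706 and Plce1. Many genes share these shapes: 1119 lay within 0.5 of Kitl and 1493 within 0.5 of Inhbb. Gdnf had 55 such neighbours, led by Pycrl (0.202), E030011O05Rik and the small nucleolar RNA gene Snord15a. For Igf1, with 234 neighbours, the nearest were Adamts12, Mycn and Matn2, for Bmp4, with 209, Rhox2a, Pth1r and Xlr3c, for Cxcl12 D430020J02Rik, 2700094K13Rik and Psme2b, and for Csf1 Slmo1, Ctsc and Msrb1. Inhba had 6 neighbours, led by Cyp2j9, Eln and Lyve1, and Nrg1 had 12, led by Snora81, Nedd9 and Rbms3. Fgf2 had 1, 4930486L24Rik, and next to it Mpzl2 and Wfdc1 at over 0.5. With 4 libraries, such likeness describes a shape only.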

How the data were processed

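Per the labels and the study's methods, total RNA of testis pieces was made into strand-specific ScriptSeq v2 libraries and sequenced as read pairs. The authors used TopHat2 2.1.0, Bowtie 1.1.2 and RefSeq annotation on GRCm38/mm10 for mapping, and obtained FPKM from Cuffdiff (Cufflinks 2.2.1) with corrections for multi-mapped reads and sequence bias, without effective length correction. The deposited FPKM values sum to 283580, 307964, 472726 and 659202 in the order d12, d16, d24, adult. How Cuffdiff scaled the libraries is not given in the sources used here. Rescaling by the median ratio took factors of 0.998, 0.981, 0.994 and 1.016, so the values were already close to that scale. The 4 H3K27Ac samples are not analysed here.

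Libraries were assigned from their titles. The value of 1 fragment was fitted on 14603 genes with 1 curated RefSeq transcript (GRCm38.p6), where 91.8% to 92.4% of values of up to 20 fragments lay within 0.05 of a whole number. Genes with several transcripts took the mean length if the longest was at most 1.1 times the shortest, and the shortest length otherwise. The values correspond to between 8905969 (d12) and 23682341 (d24) fragments. Intervals are exact Poisson intervals for levels and exact Clopper-Pearson intervals for ratios, and a gene at 0 has a limit of 3 fragments. Bmp4 and Inhba overlap annotated genes on the opposite strand. The study's methods give a stranded library type for mapping but name none for the FPKM step. Whether fragments of the overlapping genes were kept apart was not tested.

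Changes use log2(FPKM + 0.1) over the 13901 genes whose 4 libraries average 1 FPKM or more. The members, the receptor, ligand and marker lists and the thresholds were chosen with earlier results of these data known. All members, the list genes and, for each member, the 3 genes with the nearest profile were named; Zim1 and the d24 fragments of genes listed at 0 in adult testis were looked up after the values were seen. Adgre1 was found as Emr1, and Hbb-bt was not found. Fragment recovery, fold counts and intervals were tested on simulated data. Python 3.11.15, numpy 2.4.6, pandas 2.3.3, scipy 1.17.1 and matplotlib 3.10.9 were used. Alternatives were other pseudocounts, scalings, filters and a 1.5-fold threshold.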

Additional observations from a re-analysis of the deposited data

How the results depend on the processing

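No paired analysis was possible because each stage is 1 library; for the same reason no replicate could be left out. The number of the 6 counted genes that were at least 2-fold lower was 1 for d12 to d16, 4 for d16 to d24, 0 for d24 to adult testis and 5 for d12 to adult testis, and the number higher was 0 in each. With a pseudocount of 1 FPKM the first fell to 0 and the second to 2, beside 0.942% and 4.09% of all genes lower. With no filter, over all 10 genes, the numbers lower were 3, 7, 2 and 9, and 1 gene (Fgf2) was higher from d12 to d16, beside 5.88%, 8.05%, 3.86% and 19.4% of all genes lower and 9.86% higher. With a mean of at least 5 FPKM, which leaves Kitl, Inhbb and Igf1, the numbers lower were 0, 2, 0 and 3, beside 1.87%, 5.79%, 0.801% and 17.3%. With a 1.5-fold threshold 4 were lower from d12 to d16 and 2 from d24 to adult testis, beside 13.4% and 8.72% of all genes. For d24 to adult testis, 2 were lower with equal FPKM sums and 1 with upper quartile scaling, beside 10.9% and 4.27%. The remaining 50 of 64 alternatives for these numbers stayed within 1.5 times. Most of the 50 were numbers higher that were 0 and stayed at 0, so this total does not show stability of the numbers lower. Of the 14 that moved, all but that for Fgf2 were numbers lower. Among the 50, those with median ratio scaling could hardly differ, because that scaling was close to the deposited values.

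Equal sums moved the median log2 change of all genes from d12 to adult testis from 0.20 to -1.01, and upper quartiles moved it to -0.72, with 25.5% of genes higher and 43.8% lower. The median of the 6 genes minus that of all genes was -2.14 as deposited, -2.16 with equal sums and -2.14 with upper quartiles. A rescaling shifts the log2 changes of all genes by nearly the same amount. This difference could therefore hardly move, and it does not show stability to scaling. Among single genes, 1 change took the other sign under a scaling: Cxcl12 from d24 to adult testis, at -0.02 as deposited and 0.01 with median ratios. Fgf2, Nrg1, the adult values of Gdnf and Bmp4 and the zeros of adult testis rest on few fragments, and depth limits what they can show. A reference of all 8 Sertoli markers, added after the values were seen, fell 3.94-fold. It joins markers that differed little on the log2 scale (Rhox5 -0.28, Gata1 -0.88) with Amh (-5.01). Amh was listed at 0 in adult testis and entered with 0.1 FPKM added. The other lists were rescaled from d12 to adult testis in the same way, also after the values were seen. With equal sums 16 of 17 receptors, 12 of 14 binding proteins and 6 of 7 related ligands were lower, beside 50.1% of all genes. Of the Leydig markers 1 was higher in place of 3 and 1 was lower, beside 23.2% of all genes higher and 50.1% lower. With upper quartiles 4 of 5 macrophage markers were lower, beside 43.8% of all genes.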

Other observations

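Outside the niche lists, the blood gene Hba-a1, an alpha globin, had 236.2 FPKM at d12 and then 50.6, 52.8 and 59.4. Between d12 and d16 it differed 4.67-fold (4.15 to 5.24), beside 1.54-fold to 1.65-fold for Igf1, Kitl and Inhbb, and its part in their levels was not tested.

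Actg2, a smooth muscle actin that was listed here as a peritubular marker, did not follow the other genes of that list. It had 9.47, 5.78, 46.5 and 225.0 FPKM in the order of the stages, while Acta2, the other smooth muscle actin of the list, had 112.9, 95.1, 47.3 and 34.2 FPKM. Id4, a regulator that marks stem cells among spermatogonia, had 4.91, 24.2, 34.3 and 32.0 FPKM. By contrast, all 5 spermatogonial markers above 1 FPKM were lower at each later stage, beside 23.7% of all genes. Which cells made the RNA of Actg2 and Id4 was not measured.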
